A study of Mus musculus with 15 samples.

Results

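The promoters of protein-coding genes were sorted by the 2 opposing marks of lysine 27 of histone H3 in islets from mice given a high-fat diet (HFD) with the compound O304 (HFD-O304). A promoter was the stretch from 1000 bp before to 1000 bp after the 5′ end of a gene. It was called H3K27Ac only, H3K27Me3 only, both or neither, according to the broad peaks that reached into it. On chromosomes 1 to 19 there were 20807 such promoters, of 21951 protein-coding genes in the GENCODE annotation of GRCm38, and every one of them received a class.

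Chromatin immunoprecipitation followed by sequencing (ChIP-seq) had been performed on pancreatic islets of CBA mice in 3 diet groups: regular diet (RD), HFD, and HFD with O304, an activator of AMP-activated protein kinase (AMPK), at 0.8 mg per g of diet. The diets began at 10 weeks of age and were given for 9 or 10 weeks. Each ChIP used about 600 pooled islets, and each diet and mark had 2 replicates, which were merged before peaks were called. The HFD-O304 classes thus rest on 1 peak list per mark, and a difference between marks, classes or diets has no replicate error and no test.

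H3K27Ac is laid down by the acetyltransferases p300 and CBP at active promoters and enhancers. H3K27Me3 is laid down by Polycomb repressive complex 2 at CpG-rich promoters of silent developmental genes, and a single histone tail cannot carry both marks at this residue. Islets hold beta cells, which secrete insulin, together with alpha, delta and PP cells and some endothelial, immune and mesenchymal cells. In such whole islets a mark at a low level in all cells and a mark in a few cells cannot be told apart, and a promoter in the class of both marks may carry them in different cells.

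The promoters of 5 genes are shown first, because they span the range of sequence on which the classes lie. Glp1r, the receptor of the incretin GLP-1, had the widest peak of H3K27Ac only among the genes of the lists used here (chr17:30901617-30901916, plus strand). In RD and HFD its promoter carried both marks. Pax2, a transcription factor of kidney and ear, had the widest of H3K27Me3 only (chr19:44755502-44755801, plus strand). Ugt1a1, which conjugates bilirubin, had the widest in the class of both marks (chr1:88211709-88212008, plus strand). Nkx6-1, a beta cell transcription factor (chr5:101664662-101664961, minus strand), and Ins1, an insulin gene (chr19:52264047-52264346, plus strand), were added after their values were seen. Each sequence is 300 bases of the reference (RefSeq, GRCm38.p6) around the RefSeq start site, which lay 0 to 293 bp from the GENCODE start, read 5′ to 3′ along the gene, and capitals mark CpG dinucleotides.
Glp1r: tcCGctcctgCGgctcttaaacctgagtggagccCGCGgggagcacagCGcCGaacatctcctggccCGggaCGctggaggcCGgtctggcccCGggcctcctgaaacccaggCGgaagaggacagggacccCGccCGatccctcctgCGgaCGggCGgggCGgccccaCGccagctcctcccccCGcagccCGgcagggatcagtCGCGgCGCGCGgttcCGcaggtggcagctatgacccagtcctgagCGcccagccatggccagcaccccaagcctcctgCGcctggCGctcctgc
Pax2: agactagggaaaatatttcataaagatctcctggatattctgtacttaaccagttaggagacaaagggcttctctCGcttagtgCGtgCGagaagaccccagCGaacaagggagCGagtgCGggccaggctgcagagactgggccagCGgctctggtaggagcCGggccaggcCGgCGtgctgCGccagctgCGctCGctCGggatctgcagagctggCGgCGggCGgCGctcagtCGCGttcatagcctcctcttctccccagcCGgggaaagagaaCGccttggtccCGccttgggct
Ugt1a1: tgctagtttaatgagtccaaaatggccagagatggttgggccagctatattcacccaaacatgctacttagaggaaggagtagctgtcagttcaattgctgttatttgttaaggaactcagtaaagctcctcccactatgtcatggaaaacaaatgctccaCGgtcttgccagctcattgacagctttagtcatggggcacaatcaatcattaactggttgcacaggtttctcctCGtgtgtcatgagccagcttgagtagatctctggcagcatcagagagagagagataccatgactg
Nkx6-1: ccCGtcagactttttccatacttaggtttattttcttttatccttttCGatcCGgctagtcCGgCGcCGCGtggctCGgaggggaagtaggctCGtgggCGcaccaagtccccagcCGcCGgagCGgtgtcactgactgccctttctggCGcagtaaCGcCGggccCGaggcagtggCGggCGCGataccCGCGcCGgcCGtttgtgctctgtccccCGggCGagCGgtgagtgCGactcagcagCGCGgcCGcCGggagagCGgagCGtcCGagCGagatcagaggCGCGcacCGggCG
Ins1: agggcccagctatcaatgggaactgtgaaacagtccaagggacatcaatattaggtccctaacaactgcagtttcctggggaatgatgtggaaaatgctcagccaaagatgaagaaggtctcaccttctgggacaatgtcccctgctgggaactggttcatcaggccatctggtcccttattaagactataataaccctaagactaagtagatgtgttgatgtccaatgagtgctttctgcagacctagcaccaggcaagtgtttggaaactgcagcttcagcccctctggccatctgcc

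The stretch held 29 CpG in Glp1r, 23 in Pax2 and 40 in Nkx6-1, against 2 in Ugt1a1 and 0 in Ins1. Over 32851 RefSeq promoter sequences of this length the median was 7. H3K27Ac peaks covered all 300 bases of Glp1r and Nkx6-1, and an H3K27Me3 peak covered all 300 of Pax2. In Ugt1a1 274 bases lay under an H3K27Ac peak and 155 under an H3K27Me3 peak, and in Ins1 no base lay under either. At Nkx6-1 the H3K27Me3 peak that put the gene in the class of both marks lay outside the printed stretch.

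In HFD-O304 islets H3K27Ac alone was the commonest marked state. It was called at 10205 promoters, 49.0% of all (95% Wilson interval 48.4% to 49.7%). H3K27Me3 alone was called at 1416 (6.81%, 6.47% to 7.16%), both marks at 519 (2.49%, 2.29% to 2.72%) and neither at 8667 (41.7%, 41.0% to 42.3%). When a −log10 q of at least 5 was asked of every peak, 379 promoters had H3K27Me3 only and 83 had both. The intervals, here and below, cover counting error over promoters only and not the spread between mice.

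The marks met at fewer promoters than either took alone. Alone or together, H3K27Ac was called at 51.5% of promoters and H3K27Me3 at 9.30%. H3K27Me3 lay at 519 of the 10724 promoters with H3K27Ac (4.84%, 4.45% to 5.26%) and at 1416 of the 10083 without it (14.0%, 13.4% to 14.7%). Read from the other side, 519 of the 1935 promoters with H3K27Me3 also had H3K27Ac (26.8%, 24.9% to 28.8%). Promoters took 9436 of the 19787 H3K27Ac peaks on these chromosomes (47.7%, 47.0% to 48.4%) and 1896 of the 20289 H3K27Me3 peaks (9.34%, 8.95% to 9.75%). The remaining H3K27Me3 peaks lay mostly in repeats, with 72.7% of those outside promoters at least 50% repeat-masked, against 2.77% of those at H3K27Me3-only promoters.

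The depth behind the lists differed. The HFD-O304 lists rested on 84694188 kept fragments for H3K27Ac and 57324419 for H3K27Me3, after 17.2% and 56.9% of the fragments had been removed as duplicates. The weakest peak had a fold enrichment over the uniform background of 2.25 for H3K27Ac and of 2.69 for H3K27Me3, so a promoter with neither mark may lie below these limits. Pileup, the number of fragments over a base, is therefore also given per 1000000 kept fragments.

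Width and pileup set the 3 marked classes apart for H3K27Ac more than for H3K27Me3. At H3K27Ac-only promoters the H3K27Ac peaks had a median width of 1055 bp (quartiles 666 and 1521 bp, 8947 peaks). Where H3K27Me3 was also present the median width was 662 bp (407 to 1124 bp, 491 peaks), close to the 695 bp of H3K27Ac peaks away from promoters. The median pileup was 40.7 fragments in the first class and 33.0 in the second, or 0.481 and 0.390 per 1000000 kept fragments, and the median fold was 3.13 and 2.55. A −log10 q of at least 5 was reached by 77.4% of the former peaks and 26.3% of the latter. The H3K27Ac peaks of the class of both marks thus lay nearer to the calling limit, and their width depended on it. With a −log10 q of at least 5 asked of each peak the order turned, with a median width of 2319.5 bp for both (62 peaks) and 1138 bp for H3K27Ac only, and with a fold of at least 3 the widths were 2131 and 1176 bp. The class of both marks held 38 promoters, described below, with both widest peaks of at least 5000 bp. Without them its median H3K27Ac width over all deposited peaks was 633 bp, and their part in the turned order was not tested. The peaks also defined the classes, so the values are a description.

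The H3K27Me3 peaks had a median width of 1084.5 bp at H3K27Me3-only promoters (quartiles 568.75 and 2051.25 bp, 1408 peaks) and 1066 bp where both marks were called (490 peaks). Away from promoters the median was 600 bp. The median pileup was 23.1, 23.5 and 23.1 fragments in these 3 sets (0.403, 0.411 and 0.403 per 1000000 kept fragments), and the median fold was 3.08, 3.14 and 3.08. The H3K27Me3 peaks at promoters were hence wider than those elsewhere at a like pileup. The sets also differed in repeats, since 72.7% of the peaks outside promoters and 2.77% of H3K27Me3-only peaks were at least 50% repeat-masked. A longer peak also overlaps a window more readily, and the part of either point in the widths was not tested. Of H3K27Me3-only peaks 14.8% were wider than 3000 bp, against 2.75% of H3K27Me3 peaks outside promoters and 3.25% of H3K27Ac-only peaks.

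**Figure D1:**
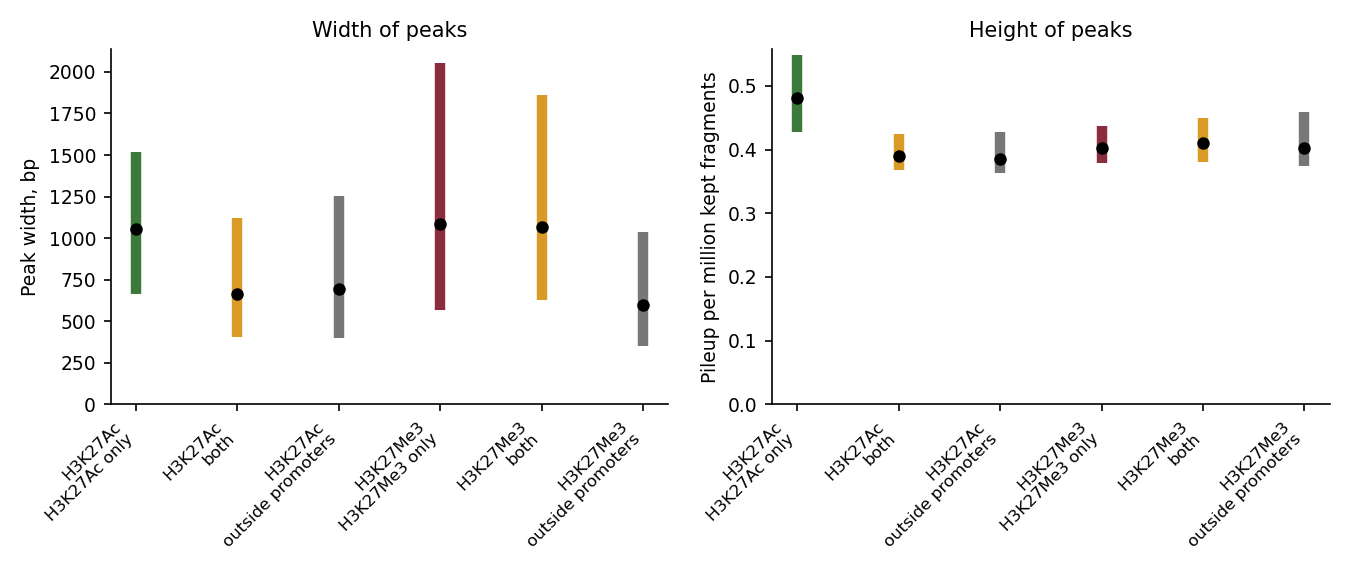
Width in bp (left) and mean pileup in fragments per base per 1000000 kept fragments (right) of the HFD-O304 peaks at promoters of each class and outside promoters. On the horizontal axis the first line names the mark and the second the class, points are medians and bars run between the quartiles. Over all deposited peaks those of H3K27Ac were narrower where H3K27Me3 was also called (662 against 1055 bp), an order that turned among peaks with a −log10 q of at least 5 (2319.5 against 1138 bp), while the H3K27Me3 widths of 1084.5 and 1066 bp were close. The class of both marks includes 38 promoters with both widest peaks of at least 5000 bp, whose part in the turned order was not tested.

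Both marks were most often found just downstream of the start site. At H3K27Ac-only promoters H3K27Ac peaks covered 71.8% of start sites and 90.6% of the positions 200 bp downstream, and 1.58% of the positions 3000 bp upstream. H3K27Me3 at H3K27Me3-only promoters covered 63.1% of start sites and reached its highest share, 71.6%, also at 200 bp downstream. It fell away more slowly, with 46.8% of positions covered at 1000 bp downstream against 27.2% for H3K27Ac.

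**Figure D2:**
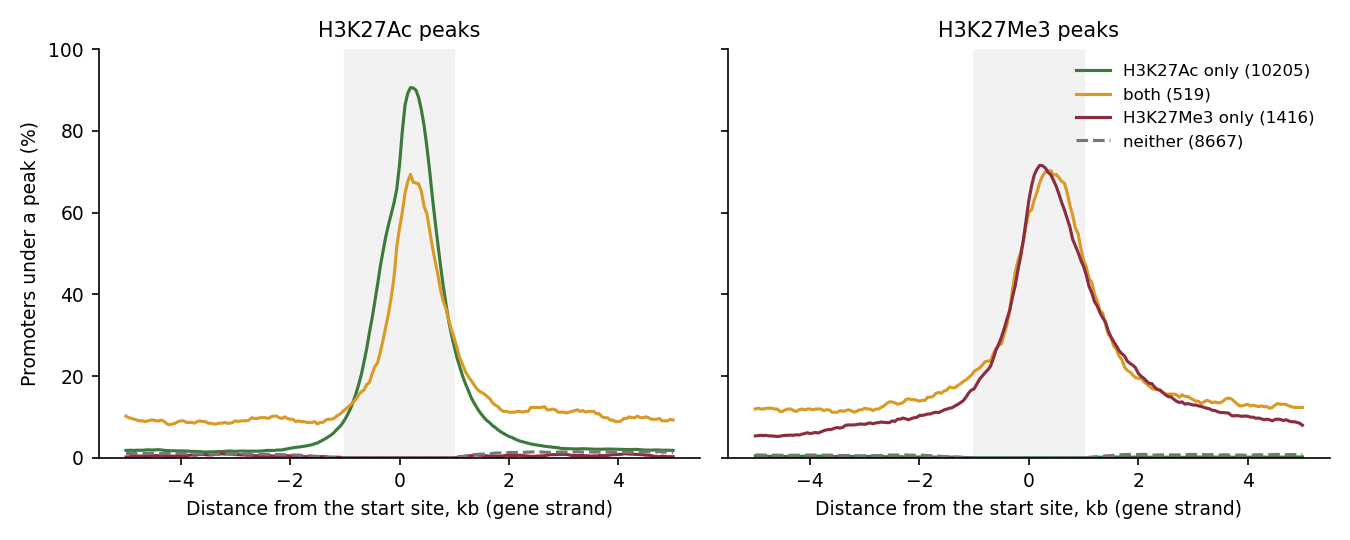
Percent of promoters with a peak of H3K27Ac or H3K27Me3 over each position from 5000 bp before to 5000 bp after the start site, per class in HFD-O304. The H3K27Ac curve of the H3K27Ac-only class peaks at 90.6% and the H3K27Me3 curve of the H3K27Me3-only class at 71.6%, both 200 bp downstream.

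The widest and the strongest H3K27Ac-only peaks were at different promoters. Dynlt1b, a dynein light chain, lay in a peak of 69998 bp at a fold of 3.72, and in RD and HFD its promoter carried both marks. Next came Pole3 and 4933430I17Rik in a shared peak of 30297 bp, Glp1r and Pax6. Hdhd3, which also had an H3K27Ac peak of 30297 bp, carried both marks in all 3 diets, with 8867 bp of H3K27Me3 in HFD-O304. Glp1r carried both marks in RD and HFD. The highest −log10 q was that of Aida and Brox, neighbours in a shared peak of 2990 bp with a pileup of 200.9 and a fold of 15.1. The next was Slc25a3, the mitochondrial phosphate carrier, with 1642 bp at a fold of 6.0, and Sfpq and Top1 were within the first 10 with folds of 5.60 and 5.58.

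H3K27Ac alone marked most genes of general cell upkeep. Of the cytosolic ribosomal protein genes 74 of 80 had H3K27Ac only, none had H3K27Me3 and 6 had neither, among them Rpl10l, Rpl3l and Rpl39l. Mitochondrial ribosomal proteins (64 of 78), Eif translation factors (47 of 52), complex I subunits (31 of 35) and Sec and Copi coat genes (30 of 31) were placed alike, beside 49.0% of all promoters. In 4 equal groups of promoters by the CpG ratio explained below, H3K27Ac only held 87.3% of the highest and 75.9% of the next. The cytosolic ribosomal (92.5%) and Eif (90.4%) lists had their median CpG ratio in the highest group. The mitochondrial ribosomal (82.1%), complex I (88.6%) and coat (96.8%) lists had theirs in the next. The one complex I list member with H3K27Me3 only was Ndufa4l2.

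All 29 genes of the unfolded protein response, which answers misfolded protein in the endoplasmic reticulum, had H3K27Ac only, beside 49.0% of all promoters. In the highest of 4 equal groups of promoters by the CpG ratio explained below, the share was 87.3%. The median CpG ratio of this list lay in that group. Xbp1, a transcription factor of this response, had a peak of 3905 bp with a pileup of 59.1 and a fold of 4.51. Hspa5, the chaperone BiP, had 1709 bp with a fold of 3.63, and Txnip, an inhibitor of thioredoxin, had 1072 bp with a fold of 2.52. The class was the same in RD and HFD for each of the 29.

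The target of O304 was in the same class. Of 15 genes of AMPK subunits and upstream kinases 13 (86.7%) had H3K27Ac only, beside 49.0% of all promoters, and none had H3K27Me3. This share was near the 87.3% of all promoters in the highest CpG group, where the list had its median CpG ratio. Prkaa1 and Prkaa2, the catalytic subunits, had H3K27Ac peaks of 1021 and 1453 bp at folds of 3.16 and 3.30. Prkag3, a regulatory subunit of muscle, and Strada had neither mark. Among AMPK targets and mitochondrial regulators 16 of 19 had H3K27Ac only, again beside 49.0% of all promoters. In the CpG group below the highest, where this list had its median CpG ratio, the share was 75.9%. Ppargc1a, a coactivator of mitochondrial biogenesis, Acacb and Tbc1d1 had neither. Sirt1, a deacetylase, had a peak of 311 bp with a fold of 2.50 in HFD-O304 and none in RD or HFD.

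Circadian clock genes had H3K27Ac only at 19 of 20, all but Rorb, beside 49.0% of all promoters. Per3, a repressor of the clock, had the highest fold among them (5.47), and Dbp, a clock output factor, lay in a peak of 16097 bp that it shared with Rpl18 and Sphk2. The immediate early genes, which respond to stimuli without new protein synthesis, had H3K27Ac only at 18 of 23. The clock and immediate early lists both had their median CpG ratio in the highest CpG group, where the share was 87.3%. Fos and Egr1 had peaks of 4875 and 3861 bp at folds of 4.33 and 4.44. Egr2, Egr3 and Egr4 carried H3K27Me3 only, with widths of 329, 5146 and 1821 bp, and so differed in class from their relative Egr1.

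The identity genes of beta cells were mostly acetylated. Of 23 beta cell transcription factors 17 (73.9%) had H3K27Ac only, beside 49.0% of all promoters. The median CpG ratio of the list lay in the group below the highest, and 75.9% of all promoters there had H3K27Ac only. Pax6, needed for endocrine cells, lay in a peak of 17606 bp, Pdx1 in one of 5093 bp at a fold of 2.96, Mafa in 2601 bp at 3.33 and Isl1 in 2150 bp at 3.50. Neurod1 (3204 bp, fold 2.75) and Myt1 (4413 bp, fold 2.41) were called in HFD-O304 and HFD and not in RD. Foxo1, a target of insulin signalling, had H3K27Ac only in all 3 diets (2545 bp, fold 3.11). The list was not uniform, since Foxa1 (5357 bp) and Mlxipl (537 bp) had H3K27Me3 only and Pax4, St18 and Nr3c1 had neither mark.

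Nkx6-1 was the only beta cell transcription factor of the list with both marks. Its H3K27Ac peak was 3639 bp wide with a fold of 4.08, while its H3K27Me3 peak was 282 bp wide with a fold of 2.73, near the lowest fold of that list (2.69). In RD and HFD the promoter had H3K27Ac only. With a −log10 q of at least 5 asked of each peak the HFD-O304 class also became H3K27Ac only.

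Of 35 genes of glucose sensing and insulin secretion 27 had H3K27Ac only, 1 had H3K27Me3 only and 7 had neither. Over all promoters these classes held 49.0%, 6.81% and 41.7%. The median CpG ratio of the list lay in the CpG group next above the lowest. Of the 5202 promoters there, 1614 had H3K27Ac only, 445 had H3K27Me3 only and 3063 had neither. Kcnj11 and Abcc8, the subunits of the ATP-sensitive potassium channel, had peaks of 7671 and 7734 bp. Chgb, a granin of secretory granules, had a fold of 4.57 and Vamp2, a vesicle fusion protein, of 4.79. Slc2a2, the glucose transporter GLUT2, had 3008 bp at a fold of 2.57 and was unmarked in RD, and Ucn3, a peptide of mature beta cells, had 718 bp at 2.54 in HFD-O304 and H3K27Ac only in each diet. Glp1r had a peak of 21429 bp at a fold of 3.07, and in RD and HFD its promoter also carried H3K27Me3.

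The hormone genes themselves were called with neither mark. Ins1 was unmarked in HFD-O304 and H3K27Ac only in RD and HFD, and Ins2, Iapp, Gcg, Sst and Ppy were unmarked in all 3. G6pc2, which is not a hormone gene, was unmarked in all 3 as well. Trpm5, a cation channel of insulin secretion, Cacna1c and Cacna1d were unmarked at the gene's 5′ end too. A peak at any annotated start of a coding transcript gave the classes H3K27Ac only, H3K27Me3 only, both and neither at 51.0%, 7.30%, 3.18% and 38.5%, and then Ins2, Trpm5, Cacna1c and Cacna1d became H3K27Ac only, as did Mlxipl, St18 and Nr3c1. An absent call at the insulin genes is therefore a statement on a window of 1000 bp either side and on a list with a lowest fold of 2.25, not on expression.

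**Figure D3:**
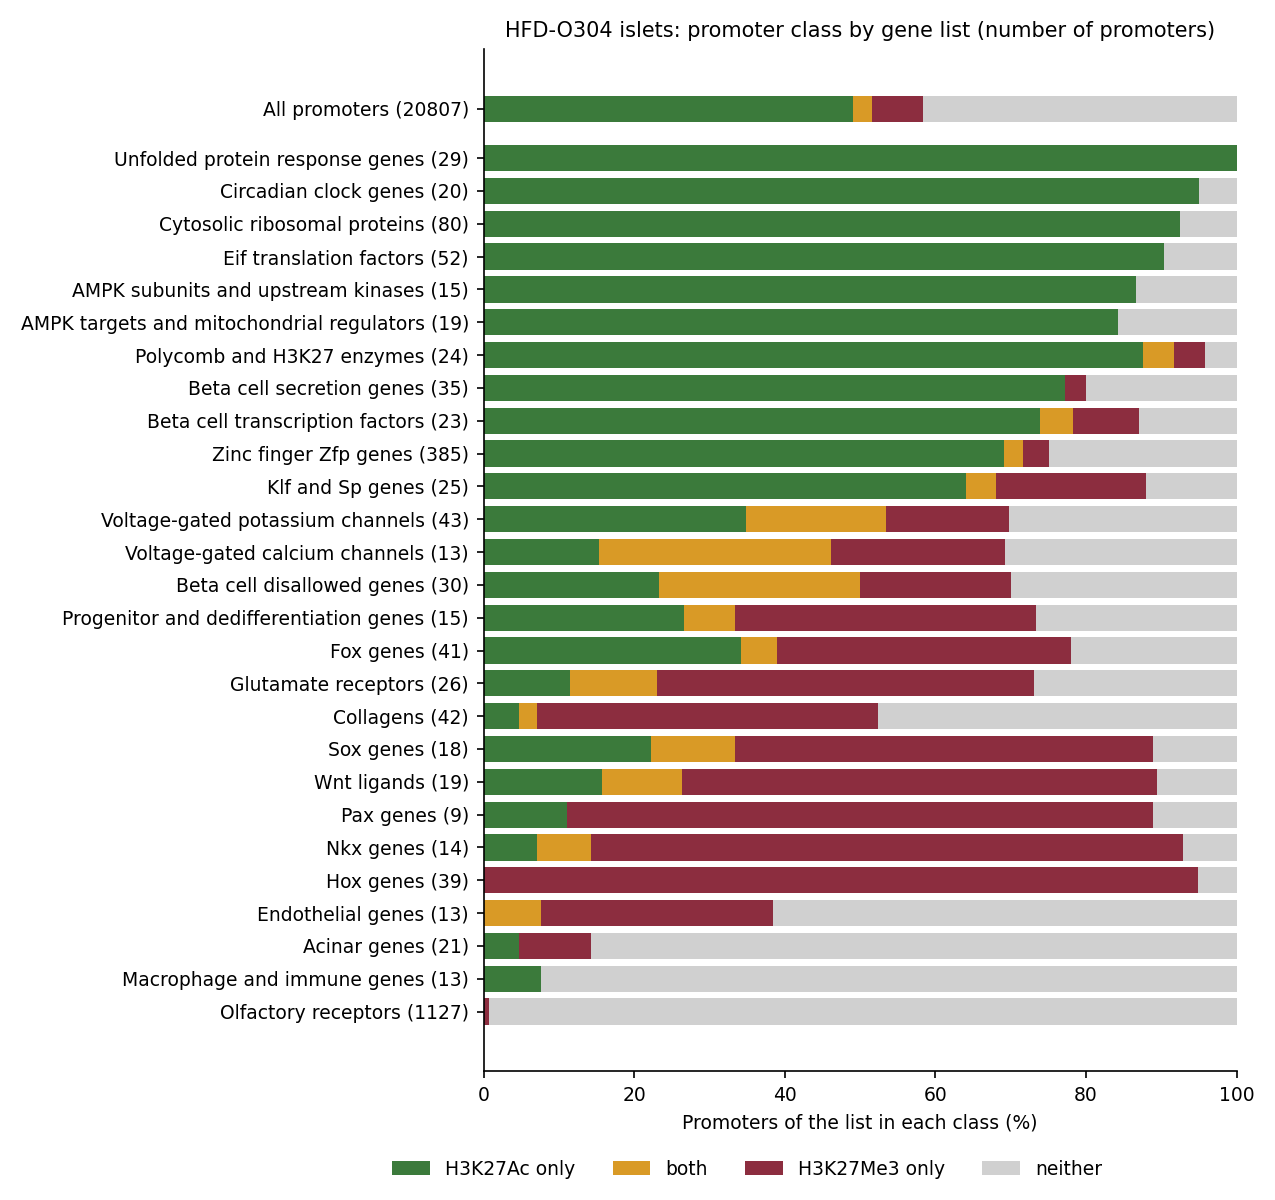
Percent of the members of each gene family or list that fell in each class in HFD-O304, with the number of members in brackets and all 20807 promoters in the top bar. Ribosomal protein and unfolded protein response genes lie in H3K27Ac only, Hox genes in H3K27Me3 only and olfactory receptors in neither.

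H3K27Me3 alone marked the developmental transcription factors. Of 39 Hox genes, which pattern the body axis, 37 had H3K27Me3 only, beside 6.81% of all promoters, and Hoxc4 and Hoxd11 had neither. Their peaks ran from 262 bp at Hoxb3 to 6727 bp at Hoxc9, and folds from 2.69 at Hoxb2 to 3.92 at Hoxd13. H3K27Me3 peaks covered 49.6% of the Hoxa cluster, 33.1% of Hoxb, 43.5% of Hoxc and 49.4% of Hoxd, and no H3K27Ac peak lay in any of them.

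The other homeobox and developmental families followed. H3K27Me3 only was the class of 11 of 14 Nkx genes, 7 of 9 Pax genes, 10 of 16 Tbx genes, 10 of 18 Sox genes, 5 of 6 Irx genes, all 6 Dlx genes and 4 of 5 Gata genes. Over all promoters the share of this class was 6.81%. Pax2 had 16023 bp at a fold of 3.37, and Lbx1, a factor of muscle and spinal cord, had 17556 bp at 3.45, the widest peak of the class. Otx1 (12045 bp), Barx1 (11061 bp), Irx3 (10648 bp), Six2 (10374 bp) and Alx4 (9793 bp) were next among transcription factors. Pax6, Nkx2-2 and Foxa2, members of such families that work in islets, had H3K27Ac only.

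Width and strength picked different promoters. By −log10 q the H3K27Me3-only class was led by Gm13271 (21.2, with a peak of 529 bp), followed by Gm36079 (20.2, 12664 bp) and Klf14, a transcription factor of metabolism (18.2, 1948 bp, fold 5.53). Rspo2, a Wnt signal enhancer, also ranked among the first 10 (11.5, 1313 bp). The widest peaks of developmental genes had a −log10 q near 5, as at Lbx1 (5.47) and Pax2 (4.97).

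Signals and receptors were split among the classes, to be read beside H3K27Me3 only at 6.81%, H3K27Ac only at 49.0%, both at 2.49% and neither at 41.7% of all promoters. Wnt ligands had H3K27Me3 only at 12 of 19 and both marks at 2. Their Fzd receptors had H3K27Ac only at 5 of 10, which is near the share of all promoters. It is below the 87.3% of the highest CpG group, where the median CpG ratio of these receptors lay. Glutamate receptors had H3K27Me3 only at 13 of 26, and serotonin, dopamine and adrenergic receptors at 12 of 27. Collagens, the fibres of connective tissue, had H3K27Me3 only at 19 of 42, with 20 at neither. Zinc finger Zfp genes were acetylated alone at 266 of 385, and 13 had H3K27Me3 only.

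Most regulators of the marks were acetylated, at a share near that of promoters of like CpG content. Of 24 genes of Polycomb complexes and of enzymes that set or remove marks at lysine 27, 21 (87.5%) had H3K27Ac only. The share was 49.0% of all promoters and 87.3% of the highest CpG group, where the list had its median CpG ratio. Ep300, the acetyltransferase p300, had a fold of 5.26, and the methyltransferase genes Ezh1 and Ezh2 had 3.84 and 3.46. Kdm6b, an H3K27 demethylase, was called in HFD-O304 only (1839 bp, fold 3.02), with neither mark in RD and HFD. Cbx8, which reads H3K27Me3, carried both marks in all 3 diets, with 2642 bp of H3K27Ac and 9667 bp of H3K27Me3. Phf19 had H3K27Me3 only (1195 bp, fold 2.90) in HFD-O304, H3K27Ac only in RD and both in HFD.

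The class of both marks held 519 promoters, and in most of them the 2 peaks lay over each other. They shared at least 1 base of the window in 487 (93.8%, 91.4% to 95.6%), with a median of 420 shared bases over all 519. In the other 32 the peaks were a median of 191.5 bp apart. The H3K27Me3 peak was the wider in 360 (69.4%, 65.3% to 73.2%). The H3K27Ac fold was under 3 in 426 (82.1%), and 83 promoters had a −log10 q of at least 5 in both marks.

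A part of the class did not look like promoters with separate peaks. In 38 of the 519 both widest peaks were at least 5000 bp, and in 28 either mark had a fold of 10 or more. Gm15319 lay in peaks of 124425 bp of H3K27Ac and 95325 bp of H3K27Me3, Ugt1a1 in 58511 and 12967 bp at folds of 2.88 and 3.403, and Sfi1 in 74589 and 74279 bp at folds of 10.5 and 11.1. A group of predicted genes from Gm10722 to Gm10715 at the start of chromosome 9 shared peaks of 38404 and 38419 bp at folds of 446 and 753. The 2 marks had peaks of nearly the same width there. Of the 38 promoters, 37 carried both marks in RD and HFD as well. Over the 519, the H3K27Me3 peak was at least 50% repeat in 23 and the H3K27Ac peak in 20, and the part of repeats in these values was not tested. Without the 38 the class held 481 promoters with a median H3K27Ac width of 633 bp and H3K27Me3 width of 1037 bp.

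Ion channel and transcription factor genes were also found in the class of both marks. Of 43 voltage-gated potassium channel genes 8 carried both marks, beside 2.49% of all promoters, as did 4 of 13 calcium channel genes. Among the latter was Cacna1g, a T-type channel, in all 3 diets. Klf2, a transcription factor of endothelium, had both marks in each diet, with 1722 bp of H3K27Ac and 1311 bp of H3K27Me3 at folds of 3.43 and 3.64 in HFD-O304. Gata6, a factor of pancreas development, had 3327 bp of H3K27Ac and 1686 bp of H3K27Me3.

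The disallowed genes, which are kept low in beta cells compared with most tissues, were spread over all 4 classes. Of 30, 7 had H3K27Ac only, 6 H3K27Me3 only, 8 both and 9 neither, beside 49.0%, 6.81%, 2.49% and 41.7% of all promoters. Slc16a1, the transporter of pyruvate and lactate, had both marks in each diet (1169 bp at a fold of 3.04 and 964 bp at 2.99). Ldha, lactate dehydrogenase A, had H3K27Me3 only in each diet, at 7233 bp and a fold of 3.13. Cxcl12, a chemokine, had both marks in HFD-O304 and H3K27Me3 only in RD and HFD. Among progenitor genes Aldh1a3, a retinaldehyde dehydrogenase, had H3K27Me3 only (1069 bp, fold 2.74) in HFD-O304 and RD and both marks in HFD. Of these 15 genes 6 had H3K27Me3 only, Sox9 with 4201 bp among them, and Neurog3 had neither.

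Genes of other cells were checked against the tissue label, but the part of CpG content in the counts was not tested. The counts are to be read beside all promoters. Of these 49.0% had H3K27Ac only, 6.81% H3K27Me3 only, 2.49% both and 41.7% neither. The acinar and macrophage lists had their median CpG ratio in the lowest CpG group, with 95.2% neither and 1.92% H3K27Ac only. The endothelial, stellate, other organ and ductal lists had theirs in the next, with 1614 of 5202 H3K27Ac only. The Schwann and the alpha, delta and PP lists had theirs in the group below the highest, with 75.9% H3K27Ac only. Acinar genes had neither mark at 18 of 21, and Bhlha15 alone had H3K27Ac (2817 bp, fold 2.75). Endothelial genes had H3K27Ac alone at 0 of 13 and together with H3K27Me3 at Erg, and macrophage and immune genes had H3K27Ac only at 1 of 13, Fcer1g (1204 bp, fold 2.37). Stellate and mesenchymal genes had H3K27Ac at 0 of 12 and H3K27Me3 only at 6, including Vim (2950 bp) and Twist1 (3030 bp). Genes of other organs had H3K27Ac at 0 of 14. With a peak at any annotated start, 2 of the 13 endothelial genes had H3K27Ac only. The counts of H3K27Ac only in the acinar, macrophage, stellate and other organ lists did not change. Ductal genes had H3K27Ac only at 4 of 9, Krt7 and Epcam among them, a share near the 49.0% of all promoters, and Schwann and neural genes at 1 of 7. Of 11 alpha, delta and PP cell genes 3 had H3K27Ac only, 4 had H3K27Me3 only, among them Irx1 and Irx2, 1 had both and 3 had neither. Of the defining beta cell markers Mafa, Nkx6-1, Pdx1, Slc2a2, Ucn3, Slc30a8 and Neurod1 had H3K27Ac, and Ins1, Ins2, Iapp and G6pc2 did not.

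Sensory receptor genes mostly had neither mark. Olfactory receptors had neither at 1119 of 1127 and H3K27Me3 only at 8, and vomeronasal receptors had neither at 323 of 326, beside 41.7% of all promoters. In the lowest CpG group, where both lists had their median CpG ratio, 95.2% of promoters had neither. The longest run of neighbouring genes without a mark held 163 genes, from Aplnr to Olfr1195.

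Sequence, which the classes did not use, divided marked from unmarked promoters. The CpG observed to expected ratio, which compares the CpG count with that given by base composition, had a median of 0.645 in H3K27Ac only, 0.548 in H3K27Me3 only, 0.617 in both and 0.190 in neither. The marked classes had 93, 80 and 100 CpG in the promoter window at the median and the unmarked class 20. When promoters were put into 4 equal groups by this ratio, 4953 of the unmarked ones lay in the lowest and 135 in the highest.

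H3K27Me3 became more frequent with CpG content among promoters without H3K27Ac and not among those with it. Among promoters without H3K27Ac the share with H3K27Me3 was 2.1% in the lowest CpG group, 12.7% and 50.5% in the next ones and 71.5% in the highest (339 of 474, 67.3% to 75.4%). Among promoters with H3K27Ac the share was 30.1% in the lowest group (43 of 143, 23.2% to 38.0%) and then 4.72%, 5.05% and 3.93%. Of those 43 promoters, 8 had both widest peaks of at least 5000 bp, 10 had a peak that was at least 50% repeat, and 32 also had both marks in RD and HFD.

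**Figure D4:**
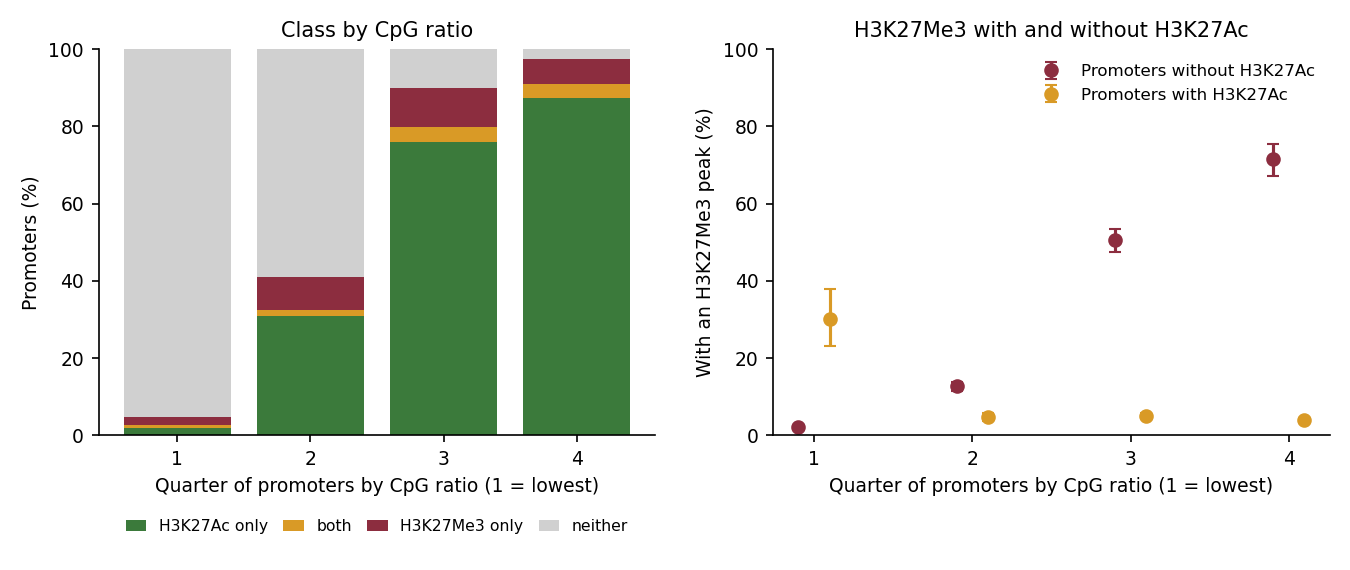
Percent of promoters in each class in 4 equal groups by CpG observed to expected ratio (left), and percent with an H3K27Me3 peak among promoters with and without H3K27Ac, with 95% Wilson intervals over promoters (right), in HFD-O304. Without H3K27Ac the share with H3K27Me3 rises from 2.1% to 71.5%, and with it the share lies at 3.93% to 5.05% in the upper 3 groups.

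Short motifs were searched in the 300 bases from 250 before to 50 after the start, on both strands. CCGGAAG, a core bound by ETS factors, was found in 18.5% of H3K27Ac-only promoters, 2.97% of H3K27Me3-only, 4.24% of both and 3.89% of neither, against 11.03% of all. TATAAA was found in 6.27%, 11.4%, 10.0% and 20.7%, against 12.7% of all, and GGGCGG in 66.0%, 52.1%, 57.2% and 15.3%, against 43.7%. Among promoters with a CpG ratio above the median of all CCGGAAG was still in 19.8% of H3K27Ac-only and 2.54% of H3K27Me3-only promoters, and in 16.1% of those with neither mark. A second gene starting within 1000 bp on the opposite strand was present for 12.9% of H3K27Ac-only promoters and for 1.13% of H3K27Me3-only ones. A match is a description of letters and not of a bound factor.

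The HFD-O304 classes were then read in the RD and HFD lists, made and classified in the same way. In RD the classes held 44.3%, 5.14%, 1.83% and 48.7% of promoters, and in HFD 49.0%, 5.89%, 2.98% and 42.1%, in the order H3K27Ac only, H3K27Me3 only, both and neither. The RD list had 74870300 kept H3K27Me3 fragments and the HFD list 54166902, so the lists differed in depth. Of H3K27Ac-only promoters 8858 (86.8%) had that class in all 3 diets, and of unmarked ones 8016 (92.5%). For H3K27Me3 only it was 627 (44.3%, 41.7% to 46.9%) and for both marks 185 (35.6%, 31.6% to 39.9%). This order was not kept among stronger peaks. When every peak had to reach a −log10 q of 5, the share was 72.5% for H3K27Ac only, 17.4% for H3K27Me3 only, 74.7% for both (83 promoters) and 89.4% for neither, and with a fold of at least 3 it was 63.3%, 18.9%, 73.3% and 89.2%. Nearly all of the 38 promoters with peaks of at least 5000 bp in both marks had both in each diet. Their part in the shares of the class of both marks was not tested.

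The promoters that changed class did so mostly by 1 mark. Of the 519 with both marks in HFD-O304, 183 had H3K27Me3 only in RD and 119 in HFD, and 80 had it in both. Car2, carbonic anhydrase 2, Sox8, Wnt2b, Cdk6 and Cdkn1c were among these 80. None of the H3K27Ac peaks of the 119, which include the 80, reached a −log10 q of 5. The H3K27Ac peaks of the 183 had a median fold of 2.45 and width of 478 bp, and 12 reached a −log10 q of 5, so they lay close to the limit of 2.25. Of the 1416 with H3K27Me3 only, 587 had neither mark in RD and 301 in HFD, and the H3K27Me3 peaks of the 587 had a median fold of 2.94 against 3.08 in the whole class. Kept depth and the calling limit differed between the lists, and their part in these changes was not tested.

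**Figure D5:**
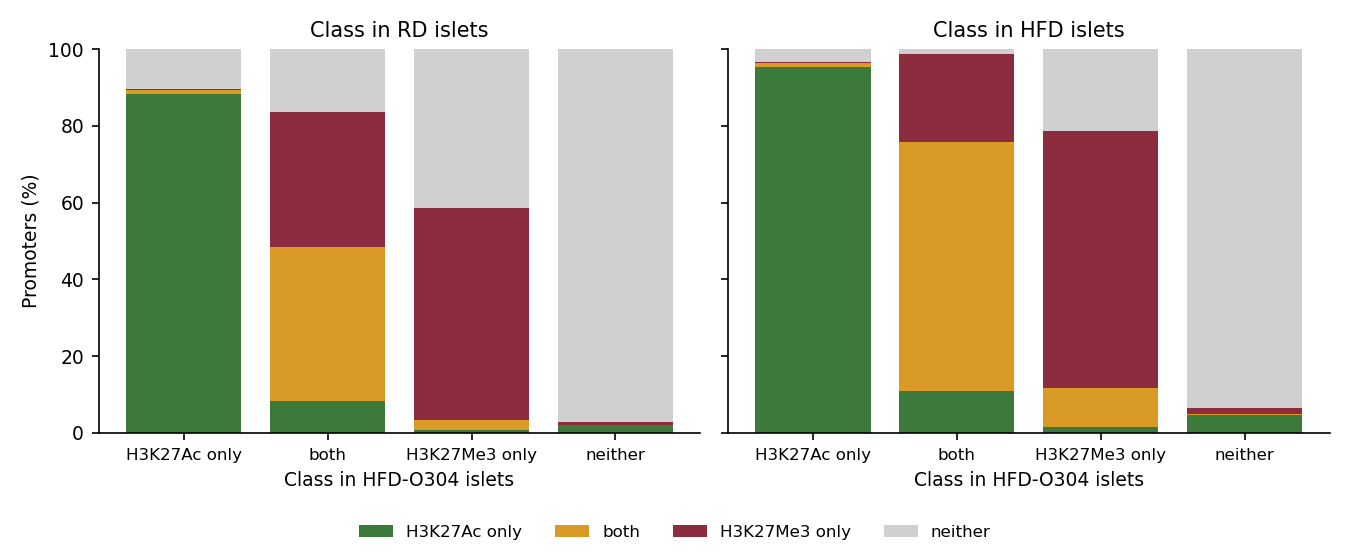
Percent of the HFD-O304 promoters of each class that fell in each class in RD and in HFD, drawn as stacked bars. The H3K27Ac-only and unmarked bars keep mostly their own class, while 35.3% of the promoters with both marks are H3K27Me3 only in RD and 22.9% in HFD.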

How the data were processed

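Islet chromatin was immunoprecipitated for H3K27Ac and H3K27Me3 by the authors, who aligned read pairs to GRCm38 (bowtie2) and pooled the 2 replicates of a mark and diet for broad peak calling (MACS 2.1.2). Per the file headers the q-value cutoff was 0.01 and no control file was given, and this cutoff is used here where the methods text differs. A uniform background was used, without a local one. The 3 input samples were not used. For each peak the deposited table gives the pileup signal (mean number of fragments over a base), the −log10 q, and the fold enrichment, a ratio of pileup to background. No counts per replicate were used.

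Promoters were taken 1000 bp either side of the 5′ end of each protein-coding gene (GENCODE mouse release 21), and a mark was present where a peak overlapped by at least 1 bp. Peaks that reach several promoters were counted once per class. Lists used 1 record per symbol, since 27 symbols were duplicated. No test was possible, so shares have 95% Wilson intervals and values have medians and quartiles. RD and HFD lists were classified in the same way. Sequence features were read from the C57BL/6J reference of GRCm38. The code for overlap and class was checked on simulated data, where 4000 of 4000 promoters received their true class. The simulated peaks were placed by the same overlap rule, so this says nothing on calls near the limit. Python 3.11.15, pandas 2.3.3, numpy 2.4.6, scipy 1.17.1 and matplotlib 3.10.9 were used.

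The genes named are the 10 with the widest peak and the 10 with the highest −log10 q of each marked class, the members of fixed gene lists and the 16 genes the study discusses. Sequences are of the first listed gene by width in each marked class, plus the study genes Nkx6-1 and Ins1. Runs of neighbouring genes and the gene groups described within a class were chosen after their values were seen. The members and lists were chosen with earlier results of these data known. Alternatives were 500 bp and 2000 bp either side, the start site itself, 200 bp of overlap, any annotated start, windows that overlap no other, a −log10 q of 5, a fold of 3, peaks of fold 10 left out, repeat-rich peaks left out and lists of equal size. Some items are not reported here.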

Additional observations from a re-analysis of the deposited data

How the results depend on the processing

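No paired analysis was possible because each mark and diet has 1 list made from merged replicates, which also kept any single replicate from being left out. The classes rest on 1 list per mark and on calls near the limit of the lists, so a mark below that limit counts as absent, and depth differs between diets. The class of both marks depends most on the peak strength asked for. It stayed within 1.5 times of 519 with a window of 500 or 2000 bp, 200 bp of overlap, any annotated start, windows that overlap no other, lists of equal size, and without repeat-rich peaks or peaks of fold 10 or more. Median CpG ratios stayed within the quartiles in all 44 recomputations. Of 836 list counts 73 moved, and of 175 classes of the study's genes 22 moved, with Nkx6-1 becoming H3K27Ac only at 500 bp, at the start site, with 200 bp of overlap, at a −log10 q of 5 and at a fold of 3.

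When each peak had to reach a −log10 q of 5, H3K27Me3 only fell to 379 and both to 83 promoters. The share of promoters with H3K27Me3 was 1.02% among those with H3K27Ac and 2.99% among those without. For promoters carrying both marks the median H3K27Ac width was 2319.5 bp and pileup 44.4, and the H3K27Me3 width 3487 bp and pileup 33.0, while H3K27Me3-only pileup was 26.97. The same class in all 3 diets was found for 72.5% of H3K27Ac only, 17.4% of H3K27Me3 only, 74.7% of both and 89.4% of neither. With a fold of at least 3 there were 6167 promoters with H3K27Ac only, 75 with both and 13409 with neither. The shares were then 1.20% and 7.94%, the H3K27Ac width and pileup of both 2131 bp and 47.0, the H3K27Me3 width and pileup 2030 bp and 33.6, and the same class held for 63.3%, 18.9%, 73.3% and 89.2%. When a peak had to cover the start site, 209 promoters had both marks, the shares were 2.74% and 7.55%, and the same class held for 72.5% of H3K27Ac only, 34.4% of H3K27Me3 only and 86.9% of neither.

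The shares were 4.17% and 12.8% at 500 bp, 5.67% and 15.7% at 2000 bp and 5.86% and 15.9% with any annotated start, and the first was 5.94% for windows that overlap no other. Unmarked promoters kept their class in all diets at 91.8% with 2000 bp and 91.9% with any start, and H3K27Ac only at 85.3% for windows that overlap no other. With lists of equal size the class was kept at 82.2%, 51.4%, 26.3% and 94.2% in the order H3K27Ac only, H3K27Me3 only, both and neither. In each of these settings the share with H3K27Me3 stayed lower among promoters with H3K27Ac than among those without. Leaving out peaks of at least 5000 bp in both marks, an alternative chosen after seeing the data, gave 478 promoters with both marks.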

Other observations

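Several gene groups not described above were split between the classes in HFD-O304, in which H3K27Ac only held 49.0%, H3K27Me3 only 6.81%, both 2.49% and neither 41.7% of all promoters. Of 18 cell cycle genes (cyclins, their kinases and the kinase inhibitors) 12 had H3K27Ac only, 4 had neither, and Cdk6 and Cdkn1c had both marks. The H3K27Ac peak of Cdk6 was 1333 bp wide at a fold of 2.37 and its H3K27Me3 peak 1835 bp at 3.43, and those of Cdkn1c, an imprinted kinase inhibitor, were 963 bp at 2.31 and 1263 bp at 3.29. Of 30 imprinted genes 10 had H3K27Ac only, 9 H3K27Me3 only, 1 both and 10 neither. Peg3 had 3141 bp of H3K27Ac at a fold of 2.82, whereas Peg10 and its neighbour Sgce shared 905 bp of H3K27Me3 at 3.06.

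The Fox transcription factors fell into 14 genes with H3K27Ac only, 16 with H3K27Me3 only, 2 with both and 9 with neither. The shares of all promoters, here and for the next families, were 49.0%, 6.81%, 2.49% and 41.7%. Among the Fox genes all of Foxo1, Foxo3 and Foxo6 had H3K27Ac only, and Foxc1, Foxc2, Foxf1 and Foxf2 had H3K27Me3 only. In the Klf and Sp family 16 of 25 had H3K27Ac only and 5 had H3K27Me3 only, of which 4 were Sp5, Sp7, Sp8 and Sp9. The replication-dependent histone genes had H3K27Ac only at 55 of 66.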
